A study of Mus musculus with 9 samples.

Results

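The proteasome is the multi-subunit protease that degrades ubiquitin-tagged proteins, and its genes were followed here in NIH/3T3 cells, an established mouse embryonic fibroblast line, after irradiation with UVA and treatment with alpha-arbutin, a glycosylated hydroquinone. The genes were taken by symbol: every row named Psma, Psmb, Psmc, Psmd, Psme or Psmg followed by a number, which gave 47 of the 56691 genes in the table, with no symbol repeated. They lie on 16 chromosomes, with at most 8 on 1 of them. RNA was sequenced in 9 libraries, all from cells labelled wild type: 3 from cells given UVA at 10 J/cm2 together with alpha-arbutin (called co-treated), 3 from cells given the same UVA dose alone, and 3 from control cells with no treatment listed. The labels state neither when nor at which dose alpha-arbutin was given, nor the time to harvest. They do not say that the libraries come from separate cultures, so that p-values measure the spread between these libraries, which may be technical. All groups come from this 1 cell line.

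The barrel of the proteasome, the 20S core particle, is made of outer alpha rings that gate entry and inner beta rings, in which Psmb5, Psmb6 and Psmb7 carry the proteolytic sites. The 19S regulatory particle caps the barrel, and its ring of ATPases (the Psmc genes) unfolds substrates. Its non-ATPase subunits (most Psmd genes) include those that bind and remove ubiquitin. Interferon exchanges the catalytic subunits for Psmb8, Psmb9 and Psmb10, which form the immunoproteasome, and other proteins assemble the particle (the Psmg chaperones, Psmd5, Psmd9 and Psmd10) or open its gate in place of the regulatory particle (the Psme activators). When proteasomes are inhibited, mammalian cells raise the transcription of many subunit genes through Nfe2l1, a factor that is itself released from the endoplasmic reticulum by the segregase Vcp and cut by the protease Ddi2; Nfe2l2, a related factor of the oxidative stress response, can also act on these genes. Both factors bind the antioxidant response element.

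Promoter windows of 300 bases, covering 250 before to 50 after the gene start, were matched in RefSeq for 39 of the 47 genes, with 42 windows in all. The core of the antioxidant response element, TGACNNNGC on either strand, with N for any base, was present in 6 of the 42 windows (14.3%), against 12.4% of all 32851 windows of this length, and CCAAT on either strand was present in 33.3%, against 37.4%. The letters of both motifs can share a base, but none of the 6 windows with the core held CCAAT. The 4 windows below are examples picked with the RNA values known. Psmb5 and Psmb6 encode catalytic subunits and hold the core close to the start. Psmd12 encodes a lid subunit and holds it at the far end. Psmd5 encodes an assembly chaperone, is without it and moved opposite to most members. With UVA, Psmb5, Psmb6, Psmc6 and Psmd12 hold the core and rose, while Psmd9 and Psme4 hold it and did not pass the test given below. Among tested members with a window and no core, Psmd5 fell and Psmd8, Psmd10, Psmd14, Psme2, Psme3, Psmg1, Psmg3 and Psmg4 did not pass. The others rose, among them Psma3, Psma7, Psmb3, Psmc4 and Psmd2. The calls of Psmb6, Psmc6 and Psmd12 were lost when certain libraries were left out. A link between the core and RNA was not tested. The windows are given 5′ to 3′ on the strand of the gene, with the TGACNNNGC core, or its reverse complement, in capitals. Coordinates are those of RefSeq's GRCm38.p6 (Psmb5, chr14:54617946-54618245, minus strand; Psmb6, chr11:70525107-70525406, plus strand; Psmd12, chr11:107479278-107479577, plus strand; Psmd5, chr2:34870913-34871212, minus strand), a different build from the mm39 coordinates used elsewhere.
Psmb5: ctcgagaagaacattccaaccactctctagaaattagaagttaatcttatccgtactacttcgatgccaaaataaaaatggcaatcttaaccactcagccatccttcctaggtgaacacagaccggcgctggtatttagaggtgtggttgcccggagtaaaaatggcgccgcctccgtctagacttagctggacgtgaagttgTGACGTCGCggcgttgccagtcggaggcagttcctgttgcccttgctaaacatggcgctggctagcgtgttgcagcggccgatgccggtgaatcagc
Psmb6: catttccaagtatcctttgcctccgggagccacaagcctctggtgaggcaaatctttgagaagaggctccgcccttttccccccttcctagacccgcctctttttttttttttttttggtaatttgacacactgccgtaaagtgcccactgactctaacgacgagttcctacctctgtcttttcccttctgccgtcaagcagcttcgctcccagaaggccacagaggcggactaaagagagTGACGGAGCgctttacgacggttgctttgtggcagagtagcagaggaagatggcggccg
Psmd12: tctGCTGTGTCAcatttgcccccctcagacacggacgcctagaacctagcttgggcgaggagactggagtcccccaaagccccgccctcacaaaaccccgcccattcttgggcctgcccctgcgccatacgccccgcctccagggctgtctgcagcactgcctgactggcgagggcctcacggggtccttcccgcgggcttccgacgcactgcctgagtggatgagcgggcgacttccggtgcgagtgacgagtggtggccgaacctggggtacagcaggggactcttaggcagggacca
Psmd5: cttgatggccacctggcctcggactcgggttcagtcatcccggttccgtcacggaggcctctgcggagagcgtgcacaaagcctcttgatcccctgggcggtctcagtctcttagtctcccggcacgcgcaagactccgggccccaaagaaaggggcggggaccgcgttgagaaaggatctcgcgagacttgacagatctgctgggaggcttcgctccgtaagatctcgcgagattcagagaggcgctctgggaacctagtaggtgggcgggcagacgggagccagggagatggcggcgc
Counted from the gene start, the first base of the match lay at -47 in Psmb5 and -9 in Psmb6. In Psmd12 it lay at -247, on the opposite strand. The remaining matches were in Psmc6 (-227), Psmd9 (-31) and Psme4 (-7). The share of members with the core was close to that of all windows, and a match is a description of the letters, not of a bound site.

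Sequencing depth was similar, at 16.3 to 20.86 (in units of 1e6 counts) in a library and 21026 to 21815 genes read at least once. Fibroblast markers summed to 6080 to 6358 counts per 1e6 (CPM) in co-treated, 6332 to 6630 CPM in UVA and 8386 to 8602 CPM in control libraries. Markers of immune cells summed to 5.00 to 5.79 CPM in co-treated, 5.16 to 7.38 CPM in UVA and 4.99 to 5.08 CPM in control libraries, and those of epithelium, endothelium and muscle to at most 5.89 CPM in any library. Within these lists Cd3e, Epcam, Krt5 and Myod1 were at 0 in all 9 libraries. Other members of these lists were read at low counts: Cd68 had 58 to 90 counts in co-treated, 73 to 117 in UVA and 52 to 59 in control libraries. In the same order Ptprc had 3 to 6, 0 to 4 and 14 to 24, and Cdh1 32 to 52, 35 to 76 and 25 to 49. Cdh5 had 54 to 97, 49 to 81 and 41 to 69, and Des 29 to 53, 24 to 62 and 14 to 52. With edgeR, Cd68 was called higher and Ptprc lower in UVA cells against control (adjusted p = 0.0103 and 0.000625). The same held in co-treated cells against control (0.0334 and 0.00879), while Cdh1, Cdh5 and Des were not called. Of the 9 fibroblast markers tested, 6 fell with UVA, namely 3 collagen genes, Pdgfra, Pdgfrb and Thy1. Over all tested genes 14.6% were called lower with UVA. Col1a1 had 252 to 343 CPM in co-treated, 248 to 315 CPM in UVA and 945 to 974 CPM in control libraries. Vim, the most abundant of them, rose, with 3294 to 3492 CPM in co-treated, 3392 to 3743 CPM in UVA and 2697 to 2772 CPM in control libraries, while S100a4 and Dcn were not called. The part of these markers in the results was not tested. In bulk RNA, fewer cells of a type and less RNA per cell cannot be told apart.

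Levels of the 47 genes were first set side by side in FPKM, the deposited count per kilobase of a gene's exons and per 1e6 counts, which allows comparison between genes up to the choice of exons. The scaffold subunit Psmd2 was the most abundant, with a control mean of 170 FPKM (rank 219 of all genes), followed by the alpha subunit Psma6 at 129 FPKM and the ATPase Psmc1 at 114 FPKM. In control libraries the 7 tested alpha genes had means of 44.1 to 129 FPKM, the 7 constitutive beta genes 31.9 to 104 FPKM, and the 6 ATPases 41.2 to 114 FPKM. Assembly factors were lower: Psmd9 and Psmg3, chaperones of the base and of the core, had control means of 4.70 and 4.48 FPKM, and Psmb10 had 3.21 FPKM (rank 8906).

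The other inducible or tissue-specific subunits were scarcely read. Psmb8 had 0, 0 and 1 counts in co-treated, 0, 1 and 0 counts in UVA and 0, 2 and 1 counts in control libraries. Psmb9 had 7, 4 and 5 counts in co-treated, 9, 2 and 11 counts in UVA and 11, 8 and 7 counts in control libraries, and it overlaps Tap1 on the other strand. Psmb11, the beta subunit of the thymus, had 2, 2 and 0 counts in co-treated libraries and 0 in the other 6, and Psma8, an alpha subunit of the testis, had 1 count in all 9. A library with 0 counts allows up to 3, or 0.144 to 0.184 CPM, from counting error alone. These 4 genes did not pass the filter on low counts (edgeR's filterByExpr) and have no test; all 43 others did.

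**Figure D1:**
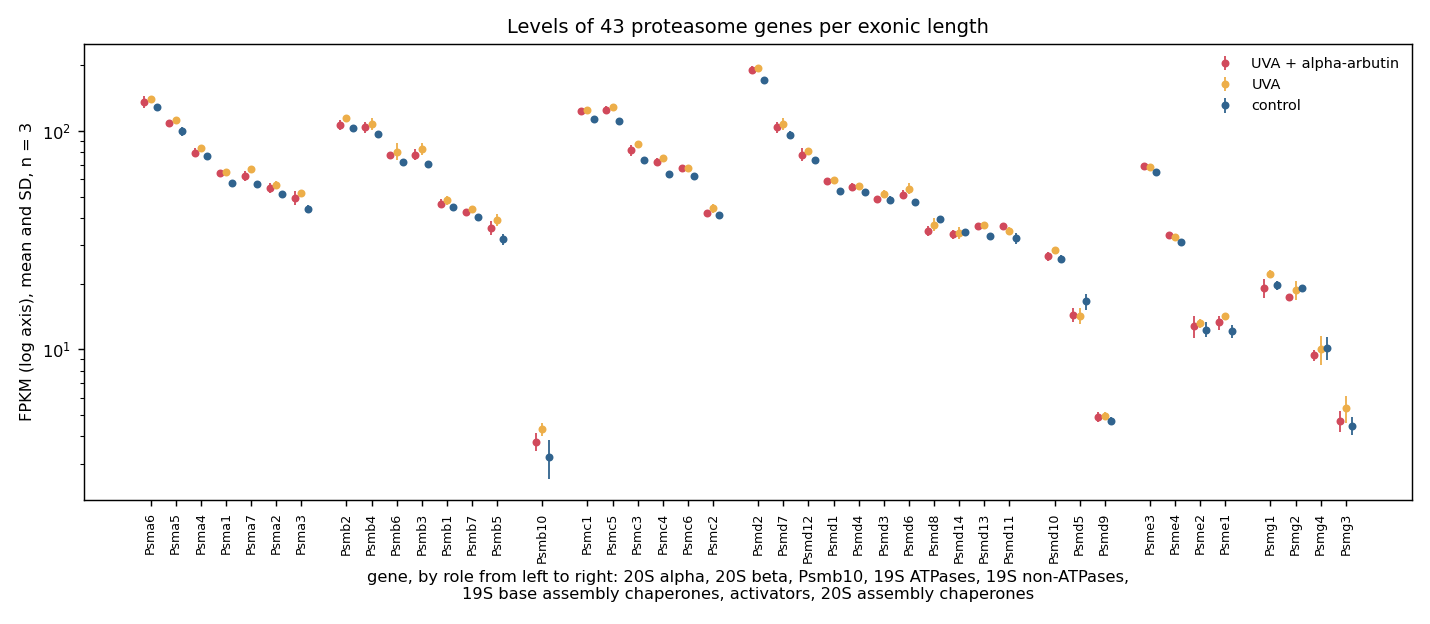
Mean level in FPKM (log axis) of each of the 43 tested genes in co-treated, UVA and control cells, with bars of 1 SD (n = 3 each), grouped by role and ordered by level within a role. Psmd2 is highest in every group, most subunits lie above the assembly chaperones, and Psmb10 is the lowest gene, with control cells at 3.21 FPKM.

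Expressed as a share of each library's counts, the 47 genes together took 0.684, 0.714 and 0.727% in co-treated, 0.711, 0.732 and 0.746% in UVA and 0.667, 0.657 and 0.660% in control libraries. All 6 irradiated libraries lay above the 3 controls, and co-treated and UVA libraries overlapped. The group means were 0.709% ± 0.0219 in co-treated, 0.730% ± 0.0174 in UVA and 0.661% ± 0.0053 in control cells (SD, n = 3). Relative to the mean CPM of the controls, the median log2 level of the 43 tested members was 0.06, 0.12 and 0.15 in co-treated, 0.13, 0.17 and 0.19 in UVA and 0.0098, -0.013 and 0.0002 in control libraries. Between 38 and 41 of the 43 members lay above the control mean in each UVA library, and between 30 and 37 in each co-treated library. The first co-treated library had the lowest median of the 6 irradiated ones.

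**Figure D2:**
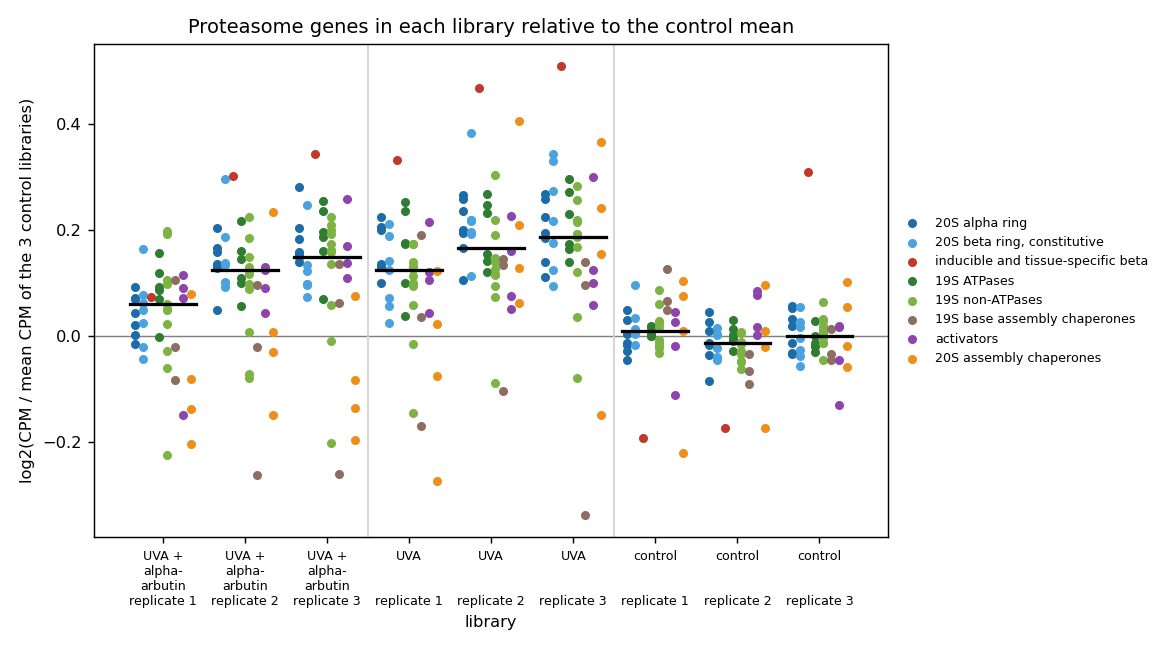
Log2 ratio of each tested member's CPM to its mean in the 3 control libraries, for the 9 libraries, coloured by role, with a bar at the median over the 43 members. The medians are 0.06 to 0.15 in co-treated, 0.13 to 0.19 in UVA and near 0 in control libraries; Psmd5 lies below 0 in all 6 irradiated libraries.

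The first comparison, UVA against control, shows how proteasome transcripts stood in irradiated cells without alpha-arbutin. Genes of the core and of the regulatory particle were higher after UVA, by small factors: 29 of the 43 tested members rose and 1, Psmd5, fell, while 13 were not called. A gene is called at an adjusted p below 0.05 (edgeR's quasi-likelihood test, Benjamini-Hochberg over all 14151 tested genes). Of the members 67.4% were called higher and 2.33% lower, against 14.7% and 14.6% of all tested genes. Their median log2 fold change was 0.16, with an interquartile range of 0.098, against 0.0029 and 0.33 over all tested genes, and 38 of 43 members were positive, against 50.5% of all tested genes. In the 29 genes that rose, fold changes ran from 1.08 to 1.35 with a median of 1.13. The 3 UVA libraries lay above the 3 controls, in scaled CPM, for 33 members, and below them for 1; over all tested genes the shares were 21.1% and 20.9%. At the threshold, Psmd4, a ubiquitin receptor, had an adjusted p of 0.04999, and Psmb1, a beta subunit, 0.05002. The call of Psmd4 was lost in 11 of the other settings tried, among them DESeq2 (adjusted p = 0.0621) and edgeR without control replicate 2 (0.186). Psmb1 passed in 5 of the other settings.

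The count changed with the choice of test and unit and with 1 library. With limma on log2(TPM + 1), which divides by exon size before scaling each library to the same sum, 13 members rose, 1 fell and the median was 0.11; over all genes that setting, which changes test, transform and scaling together, called 1184 higher and 2288 lower, against 2078 and 2064 with edgeR. Without UVA replicate 3, 18 members rose and none was called lower. The rises of 13 members passed in every setting tried: Psma1, Psma3, Psma5, Psma7, Psmb3, Psmb5, Psmc3, Psmc4, Psmc5, Psmd1, Psmd2, Psmd6 and Psmd13.

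Every tested alpha ring gene rose (7 of 7; median log2 fold change 0.19). Psma7, at chr2:179678167-179684226 on the minus strand of mm39, had 65.0, 67.6 and 68.3 FPKM in UVA libraries, against 58.4, 56.6 and 56.4 FPKM in control libraries, a log2 fold change of 0.24 ± 0.044 (SE; adjusted p = 8.08e-05). Psma3 had 50.9, 52.5 and 52.4 FPKM in UVA libraries, against 42.9, 43.8 and 45.8 FPKM in control libraries (0.25 ± 0.047, adjusted p = 0.000154). Psma1 had 65.2, 65.1 and 65.4 FPKM in UVA libraries, against 56.9, 56.2 and 59.5 FPKM in control libraries (0.20 ± 0.043, adjusted p = 0.000763). The groups did not overlap for any of these 3, nor for the other 4 alpha genes, whose log2 fold changes ran from 0.14 (Psma6) to 0.19 (Psma5). The call of Psma6 was lost without UVA replicate 2 or 3 or control replicate 1 or 3 (adjusted p of 0.0544 to 0.128). Psma5 shares sequence with the pseudogene Psma5-ps, which held 2124 counts in all, so that its value is uncertain by the reads the counting could have split.

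Of the constitutive beta genes, 6 of 7 rose, Psmb1 being the exception by the margin given above. Psmb5, which encodes the chymotrypsin-like catalytic subunit, had the largest log2 fold change of this ring. Its levels were 36.4, 41.2 and 39.8 FPKM in UVA libraries, against 34.1, 31.0 and 30.6 FPKM in control libraries (0.31 ± 0.075, adjusted p = 0.00213). Psmb3, a non-catalytic subunit, had 79.1, 81.1 and 88.6 FPKM in UVA libraries, against 70.7, 70.5 and 70.0 FPKM in control libraries (0.25 ± 0.047, adjusted p = 0.00014). Psmb4, the last beta subunit to join the ring, had 100.4, 111.3 and 111.7 FPKM in UVA libraries, against 97.6, 97.99 and 94.8 FPKM in control libraries (0.17 ± 0.047, adjusted p = 0.0061). All 3 showed no overlap between groups; the call of Psmb4 was lost with limma on log2(TPM + 1) (adjusted p = 0.0941). The other catalytic genes rose less: Psmb6 by 0.17 ± 0.052 (adjusted p = 0.0152) and Psmb7 by 0.14 ± 0.042 (adjusted p = 0.0131). In Psmb6 the lowest UVA library, at 72.7 FPKM, lay within the controls. Leaving out UVA replicate 2 or 3 or control replicate 1 or 2 ended the call of Psmb6 (adjusted p of 0.0529 to 0.14), and leaving out UVA replicate 3 or control replicate 2 that of Psmb7 (0.0641 and 0.0662).

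Psmb10, the only inducible subunit with a test, had 3.99, 4.39 and 4.53 FPKM in UVA libraries, against 2.81, 2.85 and 3.96 FPKM in control libraries. Its log2 fold change was 0.43 ± 0.15 (adjusted p = 0.0355), the largest among the members and the one with the second widest interval. Control replicate 3 lay close to the UVA libraries. The call was lost without UVA replicate 2 or 3 (adjusted p = 0.0797 and 0.104), without control replicate 1 or 2 (0.15 each), with DESeq2 (0.0585) and with limma on log2(TPM + 1) (0.0536). Set against Psmb7, the subunit it replaces, Psmb10 stood at 9.19, 10.2 and 10.0% of its FPKM in UVA and 6.93, 7.16 and 9.73% in control libraries. Psmb9 stood at no more than 0.251% of Psmb6 and Psmb8 at no more than 0.097% of Psmb5 in any library.

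The regulatory particle moved in the same direction as the core. All 6 ATPase genes rose (median log2 fold change 0.19) with no overlap between the groups. Psmc3, which had the smallest adjusted p of all members, had 85.2, 86.0 and 89.3 FPKM in UVA libraries, against 74.3, 73.5 and 72.1 FPKM in control libraries (0.26 ± 0.043, adjusted p = 2.61e-05). Psmc4 had 74.7, 73.9 and 76.2 FPKM in UVA libraries, against 63.7, 62.4 and 64.7 FPKM in control libraries (0.25 ± 0.043, adjusted p = 4.47e-05). Psmc5 had 124, 133 and 129.98 FPKM in UVA libraries, against 113, 111 and 110.2 FPKM in control libraries (0.23 ± 0.044, adjusted p = 0.000201). Each ATPase sits in a fixed place of the ring that pulls substrates into the barrel. Psmc1, Psmc6 and Psmc2 had smaller log2 fold changes, 0.15, 0.14 and 0.12. Psmc2 was no longer called without any 1 of 5 of the 6 libraries, UVA replicate 1 excepted (adjusted p of 0.0785 to 0.165), nor Psmc6 without control replicate 3 (0.0566).

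Of the 11 non-ATPase subunits, 8 rose and none was called lower. Psmd2, the abundant scaffold that docks ubiquitin shuttles, had 190, 192 and 202 FPKM in UVA libraries, against 168, 172 and 171 FPKM in control libraries (0.21 ± 0.037, adjusted p = 9.08e-05). Psmd1, the other scaffold of the base, had 59.4, 58.2 and 61.7 FPKM in UVA libraries, against 54.3, 52.4 and 53.4 FPKM in control libraries (0.18 ± 0.038, adjusted p = 0.000638). Psmd6, a lid subunit, had 51.3, 57.6 and 54.3 FPKM in UVA libraries, against 47.0, 46.8 and 47.6 FPKM in control libraries (0.22 ± 0.048, adjusted p = 0.000749). In all 3 the UVA libraries lay above every control. Without UVA replicate 3 the 8 calls became 4, with Psmd4, Psmd7, Psmd11 and Psmd12 no longer called (adjusted p of 0.0555 to 0.103), and without control replicate 2 they became 5. The 3 genes that did not pass were Psmd3, a lid subunit, at 0.10 ± 0.042 (adjusted p = 0.0732), Psmd14, the deubiquitinase of the lid, at -0.0003 ± 0.052 with an interval of -0.11 to 0.11, and Psmd8, also of the lid, at -0.06 ± 0.051.

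Of the 11 assembly factors and activators tested, 1 rose and 1 fell, against 14.7% higher and 14.6% lower of all tested genes. These counts are near the background and are not read as a change of the class. Of the 3 base chaperones, Psmd5 fell: 14.6, 15.3 and 13.0 FPKM in UVA libraries, against 18.2, 15.6 and 16.02 FPKM in control libraries (log2 fold change -0.20 ± 0.061, adjusted p = 0.013). The gap between the highest UVA and the lowest control library was narrow, and the call was lost without UVA replicate 3 (adjusted p = 0.108) or control replicate 1 (0.142). Psmd10, also known as gankyrin, had 29.2, 28.2 and 28.4 FPKM in UVA libraries, against 26.9, 24.8 and 26.1 FPKM in control libraries (0.16 ± 0.064, adjusted p = 0.0705). Psmd9 had 4.76, 5.15 and 4.99 FPKM in UVA libraries, against 4.93, 4.60 and 4.58 FPKM in control libraries, and its groups overlapped (0.09 ± 0.069).

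Among the activators only Psme1, a subunit of the interferon-induced ring, rose. It had 13.9, 14.0 and 14.8 FPKM in UVA libraries, against 11.2, 12.9 and 12.2 FPKM in control libraries (0.25 ± 0.077, adjusted p = 0.0154), and its call was lost without UVA replicate 3 (adjusted p = 0.0648), without control replicate 1 (0.0991) and with limma on log2(TPM + 1) (0.0528). Its partner and neighbour on chromosome 14, Psme2, had a log2 fold change of 0.11 ± 0.09 and shares sequence with Psme2b, which held 1180 counts in all. The nuclear activators Psme3 and Psme4 had log2 fold changes of 0.09 ± 0.041 and 0.09 ± 0.038 (adjusted p = 0.119 and 0.0942), with UVA libraries above control libraries in both. Psme3 had 69.8, 67.7 and 67.2 FPKM in UVA libraries, against 66.3, 65.9 and 62.8 FPKM in control libraries. Psme4 had 33.0, 31.9 and 33.1 FPKM in UVA libraries, against 30.7, 31.2 and 31.4 FPKM in control libraries.

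None of the 4 core chaperones was called. Psmg1, which pairs with Psmg2 to build the alpha ring, had 21.1, 22.5 and 23.0 FPKM in UVA libraries, against 20.7, 19.4 and 18.8 FPKM in control libraries (0.19 ± 0.08, adjusted p = 0.0682). Psmg3 had 4.49, 5.87 and 5.74 FPKM in UVA libraries, against 4.83, 3.98 and 4.64 FPKM in control libraries (0.27 ± 0.11, adjusted p = 0.0732). Psmg2 had 17.98, 20.8 and 17.2 FPKM in UVA libraries, against 19.4, 19.4 and 18.9 FPKM in control libraries (-0.03 ± 0.074). Only Psmg1 showed no overlap between the groups.

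**Figure D3:**
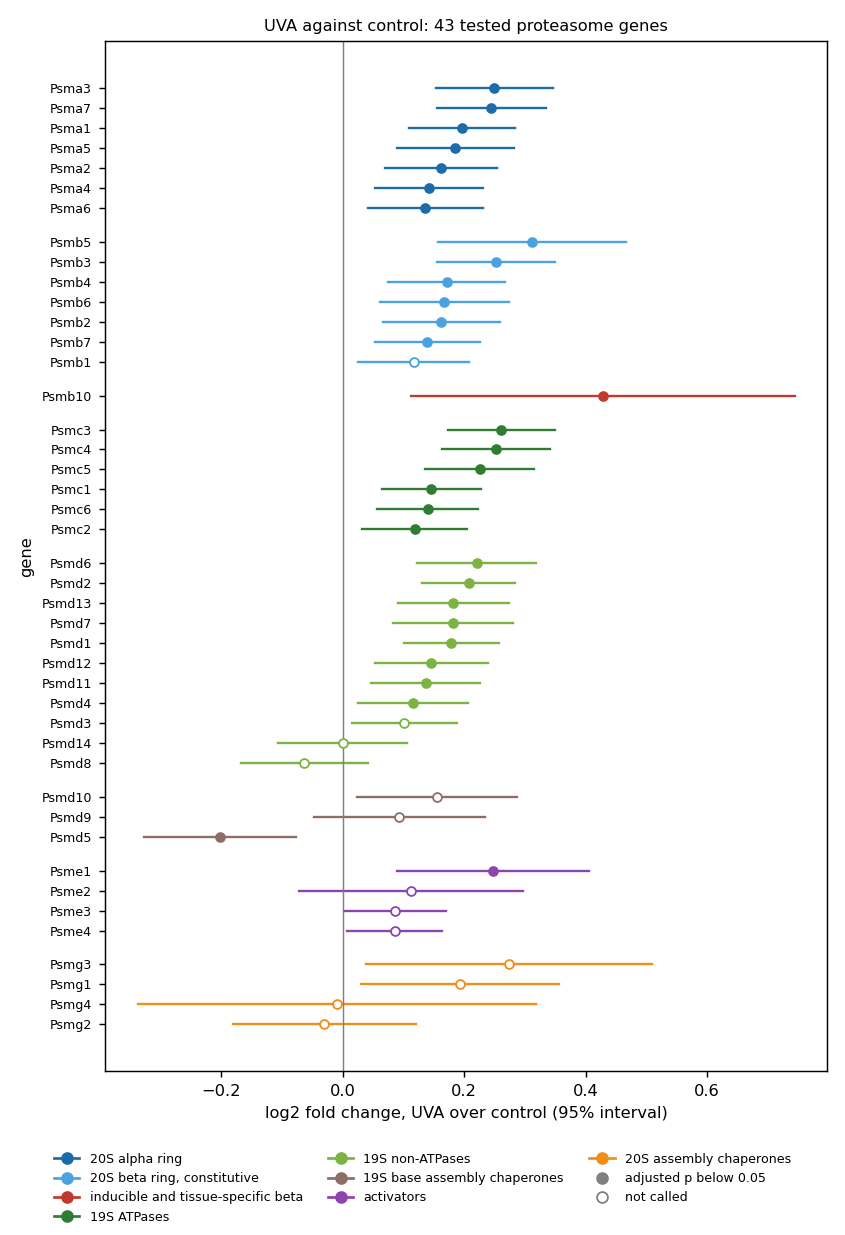
Log2 fold change, UVA over control, of the 43 tested members with 95% intervals, ordered by role; filled points passed an adjusted p of 0.05. Subunits of the core and of the ATPase ring lie right of 0, Psmd5 lies left of 0 at -0.20, and Psmb10 has the largest value, 0.43.

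Some members share ground with other transcribed genes, and the sources used here do not say whether the counting used strand. On opposite strands, Psma3 overlaps 3110056K07Rik, Psmc3 (34042 counts in all) overlaps Slc39a13 (9135 counts), and Psmb7 (23460 counts) overlaps Nek6 (10107 counts). Psmd1 also overlaps Htr2b in this way, Psmb10 Gm16156, Psmd13 (19446 counts) Sirt3 (815 counts), and Psmd5 a gene of 30 counts. On the same strand, Psma2 (32243 counts) overlaps AW209491 (2312 counts), Psmd13 overlaps Gm15542 (1511 counts), and Psmd1 overlaps Gm37914. Counting by strand would not separate these same-strand pairs. Reads from such pairs could have been assigned to either gene or dropped.

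The second comparison, co-treated against UVA, asks whether alpha-arbutin moved these genes in irradiated cells. No member was called in either direction by edgeR, by DESeq2 or by limma. Over all tested genes edgeR called 0.0353%, with 0.0283% higher and 0.00707% lower, so that 0 of 43 is near the background. At an unadjusted p below 0.05, 4 of 43 members passed with edgeR, all lower in co-treated cells, against 6.76% of all tested genes (3.12% lower and 3.64% higher). The median log2 fold change of the members was -0.06, against 6.0e-05 over all tested genes, and 39 of 43 were negative, against 50%. Because this comparison and UVA against control use the same UVA libraries, a low or high UVA library moves both, in opposite directions. The 95% interval included 0 for 39 of the 43 members, and its bounds ran from -0.50 to 0.24 over all members, so that changes within the interval of a gene are not excluded.

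The 4 members with an unadjusted p below 0.05 came from 4 roles. Psmg1 had 20.6, 19.7 and 17.0 FPKM in co-treated libraries, against 21.1, 22.5 and 23.0 FPKM in UVA libraries (log2 fold change -0.23 ± 0.08, interval -0.39 to -0.06, adjusted p = 0.627). Psma7 had 58.6, 62.3 and 65.3 FPKM in co-treated libraries, against the 65.0 to 68.3 FPKM in UVA libraries given above (-0.12 ± 0.044, adjusted p = 0.645). Psmb2, a non-catalytic beta subunit, had 100.02, 110.6 and 108 FPKM in co-treated libraries, against 113, 119 and 112 FPKM in UVA libraries (-0.12 ± 0.047, adjusted p = 0.686). Psmc3 had 76.6, 84.8 and 83.3 FPKM in co-treated libraries, against 85.2 to 89.3 FPKM in UVA libraries (-0.10 ± 0.043, adjusted p = 0.701). In scaled CPM the co-treated libraries lay below the UVA libraries for these 4 and for Psmb7 and Psmd10. No member had its co-treated libraries above all UVA libraries, and over all tested genes the shares were 5.31% below and 5.45% above.

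Role by role, the other values of this comparison were small. In the alpha ring Psma4 had a log2 fold change of -0.08 ± 0.043 and Psma3 of -0.08 ± 0.047. In the beta ring Psmb3 stood at -0.10 ± 0.047 and Psmb5 at -0.12 ± 0.075. Psmb5 had 35.5, 39.0 and 33.8 FPKM in co-treated libraries, which overlapped the UVA libraries. Psmb10 had 3.36, 3.94 and 4.04 FPKM in co-treated libraries and a log2 fold change against UVA of -0.19 ± 0.15, with an overlap between these groups. Among ATPases Psmc2 stood at -0.08 ± 0.042 and Psmc4 at -0.06 ± 0.043. Among the non-ATPases Psmd8 stood at -0.10 ± 0.051, Psmd6 at -0.09 ± 0.048 and Psmd3 at -0.08 ± 0.042, while Psmd11, a lid subunit that steadies the joint of core and cap, had the most positive value of all members, 0.06 ± 0.044. Of the chaperones and activators, Psmd10 stood at -0.11 ± 0.065, Psmd9 at -0.02 ± 0.069, Psmd5 at 0.0023 ± 0.062, Psme1 at -0.11 ± 0.077, Psme2 at -0.05 ± 0.09, Psme4 at 0.02 ± 0.038, Psmg3 at -0.19 ± 0.11 and Psmg2 at -0.11 ± 0.075. None of these passed either threshold.

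The third comparison, co-treated against control, measures irradiated cells with alpha-arbutin against the same 3 control libraries as the first. A low or high control library thus moves both comparisons in the same direction, and the third is not an independent repeat. Core and regulatory genes were among those called higher: 15 of 43 members rose, 2 fell (Psmd5 and Psmd8) and 26 were not called. Of the members 34.9% were called higher and 4.65% lower, against 13% and 12.9% of all tested genes. The median log2 fold change was 0.11 in the members and 0.0020 over all tested genes, and the 15 that rose had fold changes of 1.08 to 1.14. The co-treated libraries lay above the controls for 21 members and below them for 2, against 19.8% and 19.9% of all tested genes. The count changed with single libraries, the filter and the test: 9 members rose without co-treated replicate 3, 9 without control replicate 3, 21 without co-treated replicate 1, 10 without a filter on low counts and 8 with limma on log2(TPM + 1).

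By role, 4 of 7 alpha genes, 1 of 7 constitutive beta genes and 5 of 6 ATPase genes rose, against 13% of all tested genes. The beta count is near that share and is not read as a change of the ring. Differences between roles were not tested. Without 1 library the alpha count was 1 (without co-treated replicate 3) to 6 (without co-treated replicate 1). Psma1 had 61.1, 65.9 and 64.8 FPKM in co-treated libraries, against 56.9, 56.2 and 59.5 FPKM in control libraries (log2 fold change 0.16 ± 0.043, adjusted p = 0.00563). Psma3 had 46.1, 49.1 and 53.2 FPKM in co-treated libraries, against 42.9 to 45.8 FPKM in control libraries (0.17 ± 0.047, adjusted p = 0.00699), a call lost without co-treated replicate 3 (adjusted p = 0.0934) or control replicate 1 (0.0536). Psma7 stood at 0.13 ± 0.044 (adjusted p = 0.0311), a call that was lost without any 1 of 5 of the 6 libraries compared, co-treated replicate 1 excepted (adjusted p of 0.051 to 0.199). The remaining alpha gene called was Psma5, at 0.13 ± 0.047, and its call was lost without co-treated replicate 2 or 3 or control replicate 2 or 3 (0.0679 to 0.252). The beta gene that rose was Psmb3, with 73.9, 77.1 and 82.8 FPKM in co-treated libraries, against 70.0 to 70.7 FPKM in control libraries (0.16 ± 0.048, adjusted p = 0.0151), a call lost without co-treated replicate 3 (adjusted p = 0.136) or control replicate 3 (0.0602). Psmb5 and Psmb4 did not pass, at 0.19 ± 0.076 (adjusted p = 0.0674) and 0.11 ± 0.047 (adjusted p = 0.0777). Psmb5 passed without co-treated replicate 3 (0.0469) or control replicate 1 (0.049), and Psmb4 without co-treated replicate 1 (0.0179). Psmb10 did not pass, at 0.24 ± 0.16 (adjusted p = 0.295).

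Among the ATPases, Psmc4 had 70.6, 70.8 and 75.3 FPKM in co-treated libraries, against 62.4 to 64.7 FPKM in control libraries (0.19 ± 0.043, adjusted p = 0.00128). Psmc5 had 121, 123 and 130.3 FPKM in co-treated libraries, against 110.2 to 113 FPKM in control libraries (0.17 ± 0.044, adjusted p = 0.00451). Psmc3, whose co-treated values are given above, stood at 0.16 ± 0.043 (adjusted p = 0.00512; 0.0501 without co-treated replicate 2). The groups did not overlap in these 3, and Psmc2 was the ATPase that did not pass. The calls of Psmc1 and Psmc6 were lost without co-treated replicate 3 (adjusted p = 0.106 and 0.141), control replicate 1 (0.0711 and 0.0629) or control replicate 3 (0.122 and 0.102), which left 3 ATPases called; 3 were also left without co-treated replicate 2.

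Of the 11 non-ATPase genes 4 rose (7 without co-treated replicate 1) and 1 fell, against 13% and 12.9% of all tested genes. Psmd2 had 183, 193 and 197 FPKM in co-treated libraries, against 168 to 172 FPKM in control libraries (0.17 ± 0.038, adjusted p = 0.000831). Psmd11 had 36.7, 37.5 and 35.8 FPKM in co-treated libraries, against 34.3, 31.2 and 31.1 FPKM in control libraries (0.19 ± 0.044, adjusted p = 0.00126). Psmd1 had 56.9, 58.9 and 60.5 FPKM in co-treated libraries, against 52.4 to 54.3 FPKM in control libraries (0.15 ± 0.038, adjusted p = 0.00444), and the last was the lid subunit Psmd13 at 0.17 ± 0.045. All 3 sets of values lay above the controls without overlap. Psmd8, which completes the lid, had 33.6, 37.1 and 33.96 FPKM in co-treated libraries, against 39.0, 39.6 and 39.6 FPKM in control libraries (-0.17 ± 0.051, adjusted p = 0.0155), a call lost without co-treated replicate 1 or 3 (adjusted p = 0.0672 and 0.0661) or control replicate 3 (0.0628).

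Against these shared controls Psmd5 fell as well (-0.20 ± 0.061, adjusted p = 0.016). It had 15.6, 13.8 and 13.7 FPKM in co-treated libraries, against 18.2, 15.6 and 16.02 FPKM in control libraries. Its highest co-treated library met the lowest control, and the call was lost without co-treated replicate 2 or 3 (adjusted p = 0.0807 and 0.0808) or control replicate 1 (0.162). Of the activators Psme4, the large nuclear activator linked to histone degradation, rose, with 33.0, 33.0 and 33.95 FPKM in co-treated libraries, against 30.7 to 31.4 FPKM in control libraries (0.11 ± 0.038, adjusted p = 0.0382). That call was lost without any 1 of 5 of the 6 libraries compared, co-treated replicate 1 excepted (adjusted p of 0.0694 to 0.136). Psme3 at 0.10 ± 0.041 and Psme1 at 0.14 ± 0.078 did not pass, and none of the core chaperones did: Psmg2 stood at -0.14 ± 0.074, Psmg3 at 0.08 ± 0.12 and Psmg4 at -0.11 ± 0.16.

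**Figure D4:**
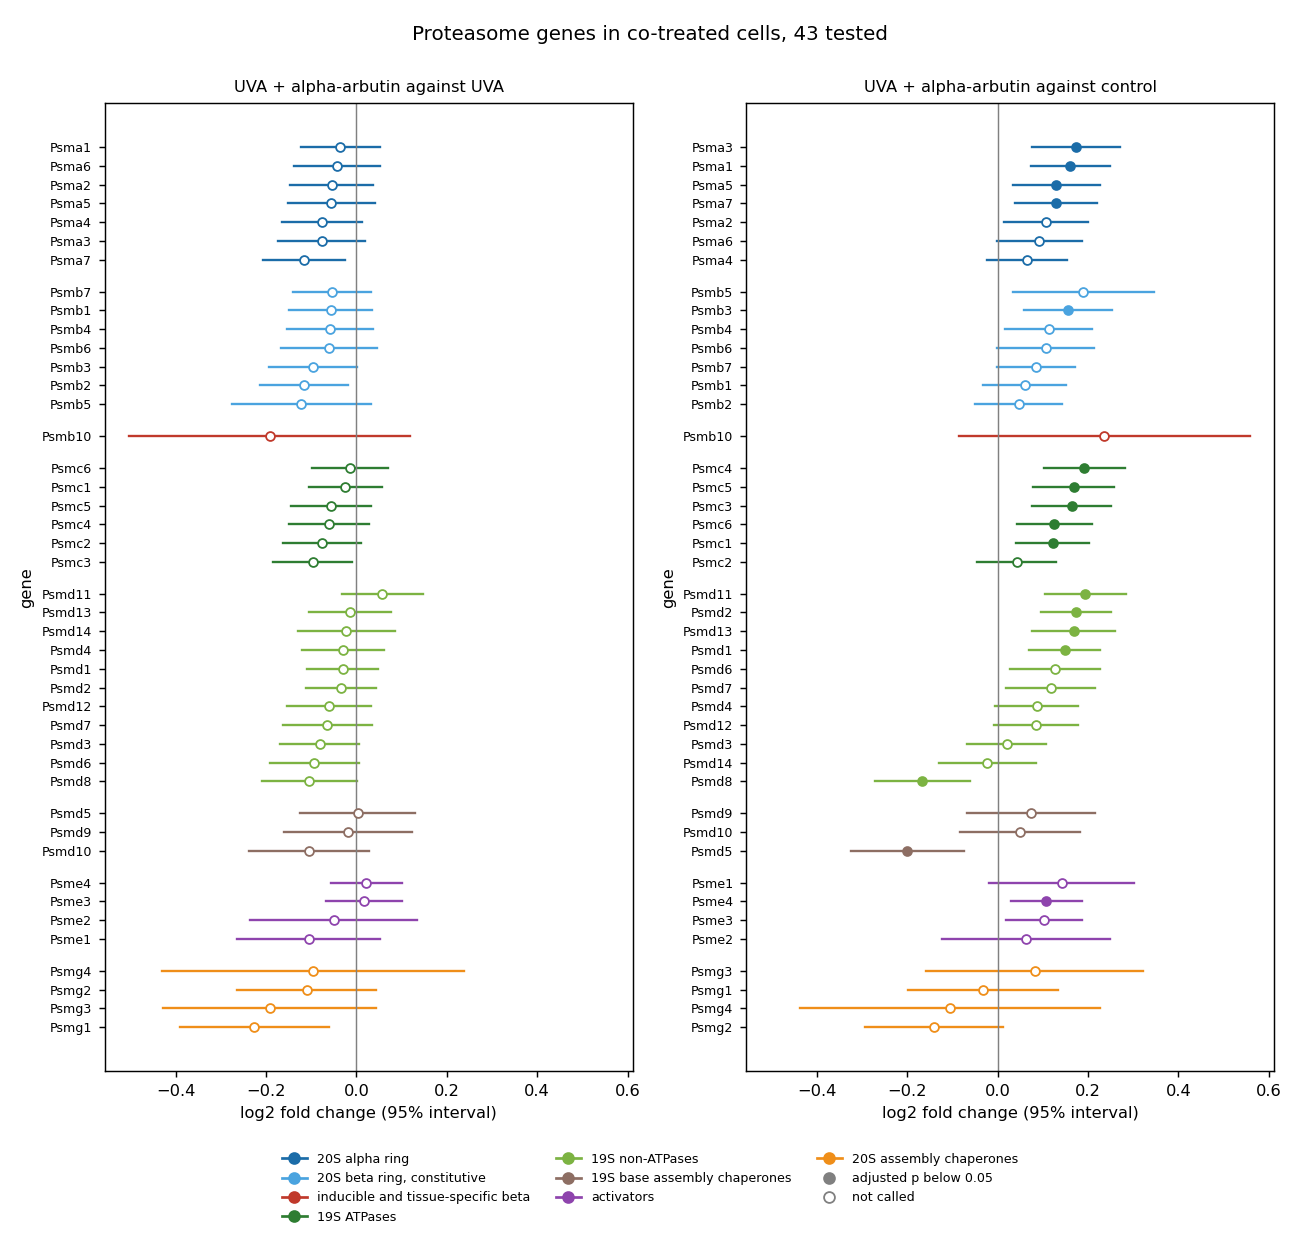
Log2 fold changes of the 43 tested members with 95% intervals, co-treated over UVA on the left and co-treated over control on the right, ordered by role; filled points passed an adjusted p of 0.05. On the left no member passed and 39 of 43 values are below 0; on the right 15 members passed above 0 and Psmd5 and Psmd8 below it.

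Genes that work with the proteasome were read from lists of its other subunits and factors, of the control of its transcription, of ubiquitin, of shuttles that carry substrates to it, and of interferon-linked partners. Of 12 tested subunits and factors outside the symbol rule, 5 rose with UVA and none was called lower, against 14.7% higher and 14.6% lower of all tested genes. Zfand5, an activator of the regulatory particle, had 17.1, 17.2 and 17.6 FPKM in UVA libraries, against 14.8, 14.1 and 14.5 FPKM in control libraries (log2 fold change 0.28 ± 0.045, adjusted p = 2.43e-05). Pomp, the chaperone of the beta ring, had 27.4, 28.0 and 28.1 FPKM in UVA libraries, against 23.4, 24.1 and 24.1 FPKM in control libraries (0.24 ± 0.047, adjusted p = 0.000309). The deubiquitinase Usp14 and the thioredoxin-like Txnl1, both bound to the regulatory particle, rose by 0.16 ± 0.042 and 0.14 ± 0.042, and the inhibitor Psmf1 by 0.22 ± 0.069. These calls were lost without control replicate 3 for Usp14 (adjusted p = 0.0624), UVA replicate 2 or control replicate 3 for Txnl1 (0.0581 and 0.066), and UVA replicate 3 or control replicate 1 for Psmf1 (0.0916 and 0.0521). Without control replicate 3 the 5 became 3. Co-treated against control, 4 of the 12 rose and none was called lower, against 13% and 12.9% of all tested genes. Without co-treated replicate 3 Zfand5 alone stayed called, with Pomp, Psmf1 and Usp14 at adjusted p of 0.0908, 0.126 and 0.0804, and without control replicate 1 the 4 became 2. With only the compared pair of groups in the fit, Ipo9, an importin, was called lower in UVA cells against control (adjusted p = 0.0462, and 0.0394 with DESeq2). In such a fit Sem1 was called lower in co-treated cells against control (0.0498). Both were also called lower in some other settings, among them the fit with replicate number as a block. Between co-treated and UVA cells none of the 12 was called; Sem1, the smallest lid subunit, had 20.6, 23.2 and 22.1 FPKM in co-treated libraries, against 23.5, 26.5 and 25.8 FPKM in UVA libraries (-0.21 ± 0.055, adjusted p = 0.338).

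Of the 5 genes of transcriptional control, 3 rose and 1 fell with UVA, against 14.7% higher and 14.6% lower of all tested genes. Vcp had 199.9, 196 and 212 FPKM in UVA libraries, against 163, 158 and 163 FPKM in control libraries (0.35 ± 0.04, adjusted p = 9.05e-08). Nfe2l1 fell, with 58.5, 59.3 and 56.3 FPKM in UVA libraries, against 73.7, 72.8 and 76.2 FPKM in control libraries (-0.34 ± 0.039, adjusted p = 7.81e-08). Nfe2l2 had 42.5, 41.6 and 40.9 FPKM in UVA libraries, against 37.2, 35.8 and 35.9 FPKM in control libraries (0.22 ± 0.043, adjusted p = 0.000271), and Ddi2 rose by 0.23 ± 0.052 (adjusted p = 0.00112). None of these groups overlapped. The co-treated libraries gave the same 3 higher and 1 lower against control, against 13% and 12.9% of all tested genes. Vcp stood there at 0.30 ± 0.04 and Nfe2l1 at -0.32 ± 0.039. The call of Nfe2l2 there was lost without co-treated replicate 3 or control replicate 2 or 3 (adjusted p of 0.0745 to 0.0755), and none of the 5 was called against UVA. These are transcript levels; the released and cut form of Nfe2l1 was not measured.

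In the next lists the counts are small, and their shares stand against the 14.7% higher and 14.6% lower over all tested genes with UVA, so that they are not read as changes of the lists. Among 5 genes of ubiquitin and its activating enzymes, Rps27a, which encodes ubiquitin fused to a ribosomal protein, rose with UVA (0.14 ± 0.037, adjusted p = 0.00333), and none was called in the other comparisons. Of 8 shuttles and cofactors of Vcp, Nploc4 and Ufd1, which together recruit ubiquitinated substrates to Vcp, rose with UVA by 0.26 ± 0.045 and 0.24 ± 0.05. The Vcp adaptor Faf1 fell, at -0.13 ± 0.044, a call lost without UVA replicate 3 or control replicate 1 or 3 (adjusted p of 0.054 to 0.112). The counts for co-treated against control were also 2 higher and 1 lower, against 13% and 12.9% of all tested genes, with none called against UVA. For co-treated against control, Ufd1 was no longer called without co-treated replicate 3 or control replicate 3 (adjusted p = 0.0726 and 0.0883). Of 7 interferon-linked partners, Erap1, which trims peptides for presentation, had 3.22, 3.42 and 3.87 FPKM in UVA libraries, against 2.21, 2.16 and 2.18 FPKM in control libraries (0.70 ± 0.086, adjusted p = 2.28e-07), and B2m, the light chain of the presenting complex, rose by 0.23 ± 0.039. The peptide transporter gene Tap2 had 2.32, 2.53 and 2.22 FPKM in UVA libraries, against 3.48, 4.05 and 3.65 FPKM in control libraries (-0.65 ± 0.12, adjusted p = 8.66e-05). Irf1, a factor that carries the interferon signal to Psmb8 and Psmb9, did not pass, at -0.10 ± 0.092. Against control, co-treated cells gave 2 higher and 1 lower in this list, against 13% and 12.9% of all tested genes. None was called against UVA.

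**Figure D5:**
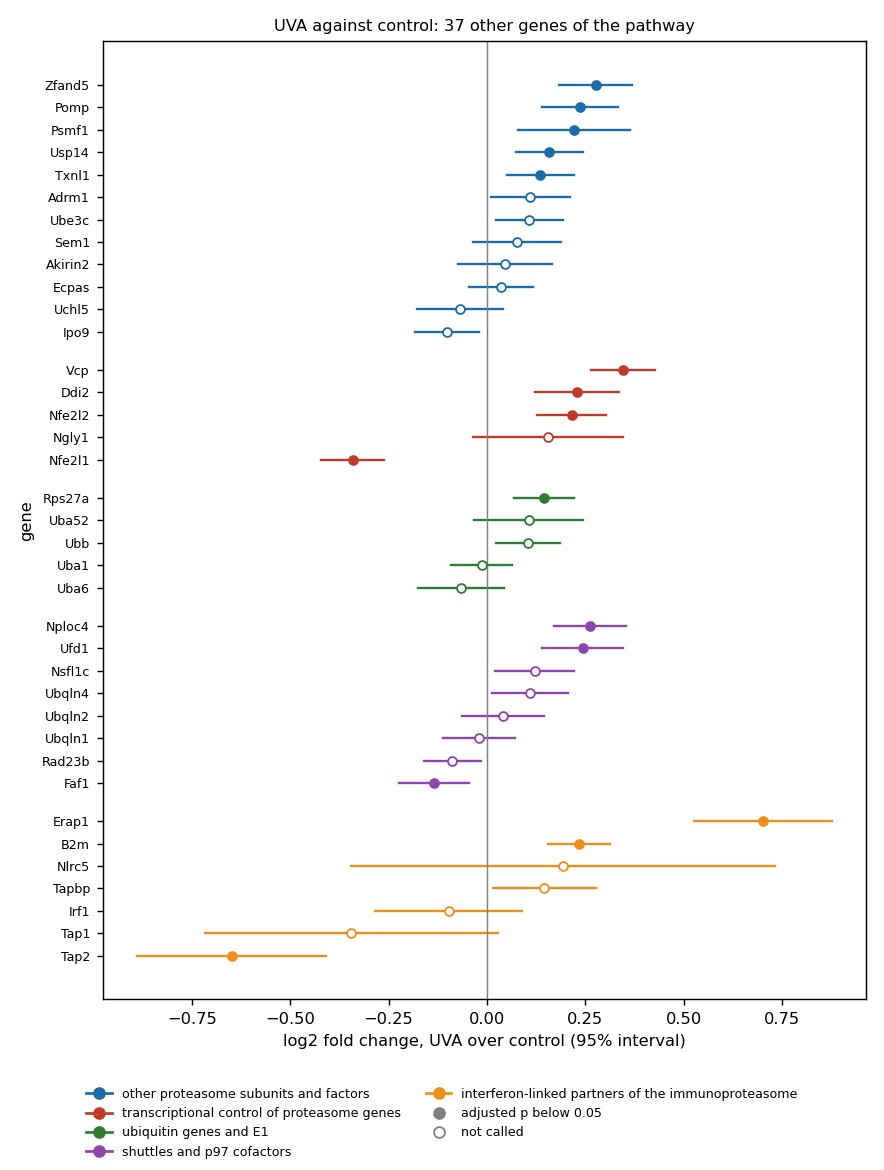
Log2 fold change, UVA over control, with 95% intervals of the tested genes of the 5 related lists; filled points passed an adjusted p of 0.05. Vcp (0.35) and Nfe2l1 (-0.34) lie on opposite sides of 0 within the list of transcriptional control, and Erap1 (0.70) and Tap2 (-0.65) within the interferon-linked list.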

How the data were processed

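RNA sequencing of the 9 NIH/3T3 libraries is deposited as 1 table. Per the file headers, the authors give raw counts and FPKM for every gene and library, with exon sizes and coordinates. The deposited FPKM values could be recomputed from count, exon size and the library's summed count (510219 of 510219 values matched within 0.01). Per the submitters' processing notes, the tools were HTSeq 0.6.1, HISAT2 2.2.1, cutadapt 1.9.1 and bcl2fastq 2.20.0.422 and the build was mm39; the notes state no role for them. Per the labels' protocols, each library took 2 ug of total RNA and a VAHTS Universal V8 kit; for RNA selection, strand use and annotation release the sources used here give nothing. Groups follow titles and treatment labels: titles of UVA samples read MOCK and carry the UVA dose as treatment, and the NC columns were taken as control because the other prefixes match the other titles.

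Genes were tested on the deposited counts with edgeR 4.0.16 in R 4.3.3 (filterByExpr, TMM factors of 0.992 to 1.007, quasi-likelihood F-test, two-sided, all 9 libraries in a fit on group), which left 14151 genes, with Benjamini-Hochberg adjustment over all of them in each of 3 comparisons. CPM values are scaled by TMM, except those of markers and floors, which use the library's total count. Unless another tool is named, p-values and standard errors come from this fit. Alternatives were DESeq2 1.42.0 with its size factors, limma 3.58.1 on TPM and with voom, no filter, only the groups compared, a replicate block and each library left out; removal of a trend on exon size was added after seeing the data. No library pair had identical counts. Depth of 16.3 to 20.86 (1e6 counts) limits Psmb8, Psmb9, Psmb11 and Psma8. Floors cover counting error only, while intervals cover counting error and the spread between these libraries, which may be technical.

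The members and lists were chosen with earlier results of these data known. Members given with values are, in each comparison, the 3 with the smallest p in each role, all inducible beta subunits and every called member where 8 or fewer were called; related lists name up to 4 genes with the smallest p. Members outside this rule, such as Psmb6, Psmb7, Psmd14, Psmd13, Psme2, Psmf1, Ipo9 and Irf1 where they are given, were named after their values were seen. A few genes of the related and marker lists are not reported here and not counted in them. Of 13 listed factors, Paaf1 was not matched by symbol in the table. Promoter sequences are from RefSeq (GRCm38.p6).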

Additional observations from a re-analysis of the deposited data

How the results depend on the processing

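For UVA against control, the members' rise kept its direction in every setting tried. The count of 29 higher members was 27 to 31 with other size factors, DESeq2, voom, no filter, only the 2 groups, or the trend on exon size removed (chosen after seeing the data), 13 with limma on TPM, and 18 to 31 without 1 library. The 1 lower member was 0 or 1 without 1 library, and the median log2 fold change was 0.11 with limma on TPM and 0.15 to 0.18 without 1 library. Against UVA, co-treated members gave 0 calls in either direction in all settings, with a median of -0.083 to -0.033 without 1 library. For co-treated against control, the 15 higher members were 8 with limma on TPM and 9 to 21 without 1 library; the 2 lower were 1 and 0 to 2; the median was 0.09 to 0.14 without 1 library. The cause of these shifts was not tested. Deviations of same-numbered libraries were at most weakly related (r from -0.0087 to 0.076), and a low r over all genes cannot exclude a pairing. Between co-treated and UVA libraries r was 0.045, 0.039 and 0.076 for same numbers, against -0.071 to 0.026 for different ones. With the replicate block, 30 members were higher in UVA and 18 in co-treated cells against control. For co-treated against UVA, that block called 16 of all tested genes higher and 3 lower, against 4 and 1 without it. A few uncalled values near 0 changed sign. Against UVA, Psmd5 stood at -0.002 without a filter, -0.017 with the size trend removed and -0.063 to 0.053 without 1 library. Psmd9 stood at 0.0042 with limma on TPM and -0.052 to 0.025 without 1 library, Psme2 at -0.11 to 0.041 without 1 library, and Psme4 at -0.0013 with the size trend removed. Against control, Psmd14 in UVA cells stood at 0.001 with voom. Without 1 library it stood at -0.049 to 0.040, Psmg2 at -0.11 to 0.028, and Psmg3 in co-treated cells at -0.0016 to 0.15.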
